A study of Sus scrofa with 8 samples.

Results

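OTX2, SALL2, ZIC1, ZIC2, ZIC5, SOX3, SOX4, SOX11 and SOX21 encode transcription factors of the epiblast and the early neuroectoderm. They were chosen by symbol, as the rows of the deposited count table whose identifier carries one of these 9 symbols in the pig Ensembl gene names, and 8 of the 9 were found among 24358 rows, of which 14692 have a symbol. SOX4 has no named row.

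The study asked how IRF-1, an interferon-regulated transcription factor, affects porcine induced pluripotent stem cells. RNA-seq was done on poly(A)-selected RNA of 2 groups of DOX-hLIF-2i piPSCs, with 2 libraries in each. Replicates 1 and 3 carried PB-CAG-IRF1-Flag (IRF-1 overexpressing cells) and replicates 6 and 8 carried PB-CAG-Flag (control cells). The deposited genotype label reads overexpression for all 4 RNA-seq libraries, so the assignment follows the study's own legend, and IRF1 was used to check it.

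Both groups descended from embryonic fibroblasts with an OCT4-tdTomato reporter, reprogrammed with the doxycycline-inducible FUW-OSKM and FUW-M2rtTA lentiviruses, and were grown with LIF, the inhibitors CHIR99021 and PD0325901, and doxycycline. The deposited growth label instead names an LCDMV culture system. Both groups were selected with puromycin after a piggyBac transfection, and IRF1-Flag was driven by the CAG promoter. The cells depended on the exogenous reprogramming factors, SOX2 among them, and feeder cells were reduced by letting them attach for a short time before collection. Nothing in the labels says that replicates were separate cultures, so p-values measure only the spread between these samples, which may be technical.

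As background, OTX2 is needed for the exit from the naive state and later for the anterior neural plate, and zinc finger factors of the ZIC family accompany this exit and act in the neural plate and its borders. SOXB1 factors such as SOX3 keep neural progenitors undifferentiated, the SOXB2 factor SOX21 opposes them, and the SOXC factors SOX4 and SOX11 act in progenitors that are becoming neurons. SALL2 is a zinc finger factor of the spalt family found in neural tissue and in pluripotent cells.

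The libraries held 24923319 and 20858333 counts in IRF-1 overexpressing replicates 1 and 3, and 15925429 and 17097669 counts in control replicates 6 and 8. Levels are given in CPM (counts scaled to the size of each library with TMM factors), and 3 counts, taken as the floor, were worth between 0.121 and 0.192 CPM. IRF1 was counted with 8206 and 5485 reads in the libraries assigned to overexpression against 55 and 56 reads in those assigned to the control, which follows the assignment.

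OTX2 fell and SOX11 rose in the IRF-1 overexpressing cells, and the other 6 named factors were not called. All 8 passed the filter on low counts. A gene was called when the quasi-likelihood test of edgeR gave it an adjusted p under 0.05 and its fitted log2 fold change was 1 or more in size. Thus 2 of the 8 factors were called, beside 19.3% of the 13250 genes tested, and 1 was higher and 1 lower, beside 8.61% and 10.6%. The groups did not overlap in CPM for 7 of the 8, beside 68.6% of all genes tested. The median log2 fold change of the 8 factors was -0.13 beside 0.00 over all genes tested.

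**Figure D1:**
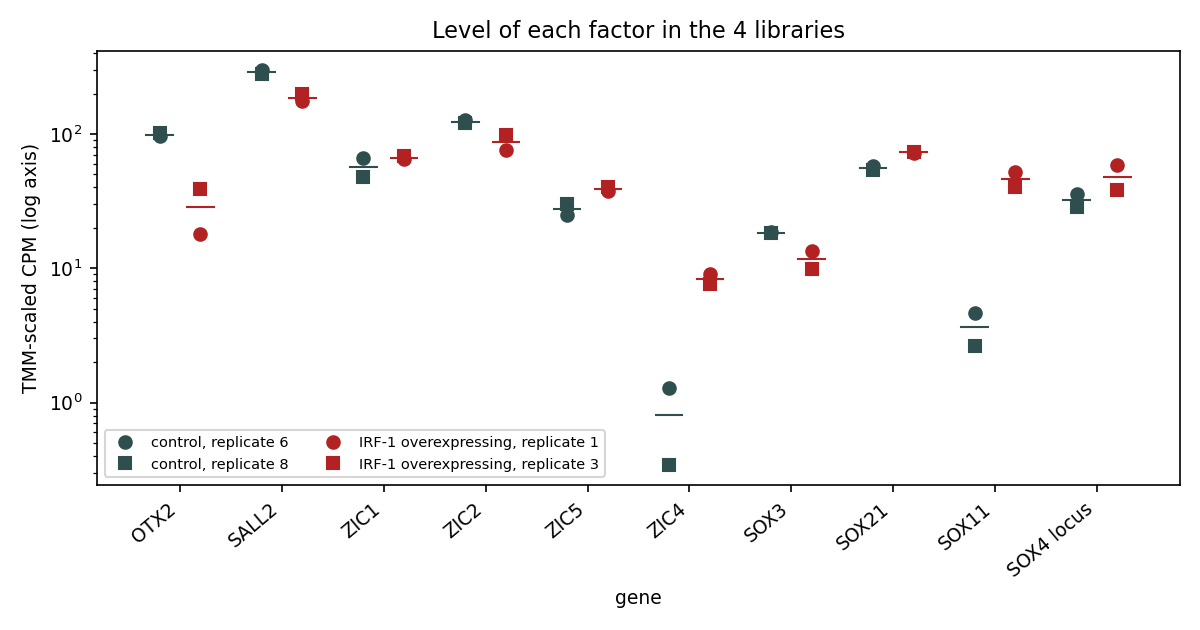
Level of each factor in TMM-scaled CPM on a log axis, with a point for each library and a bar at the mean of each group (n = 2). OTX2 was lower and SOX11 and ZIC4 were higher in both IRF-1 overexpressing libraries than in both controls, whereas ZIC1 overlapped between the groups.

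OTX2 (ENSSSCG00000005063, minus strand of chromosome 1, 186027585 to 186038340) is the homeodomain factor of the group. It had 18.1 and 39.1 CPM in IRF-1 overexpressing replicates 1 and 3, and 95.9 and 102 CPM in control replicates 6 and 8. Both overexpressing libraries lay below both controls, and they differed from each other by 2.16-fold, whereas the controls differed by 1.07-fold. The mean was 28.6 ± 14.8 CPM against 99.0 ± 4.41 CPM (SD, n = 2 per group). The log2 fold change was -1.79 (standard error, SE, 0.317, adjusted p = 0.00527 by the quasi-likelihood test of edgeR, Benjamini-Hochberg adjusted). In bulk RNA, fewer cells that express a gene and less of its RNA per cell cannot be told apart. Without overexpressing replicate 3 the log2 fold change was -2.44, and without replicate 1 it was -1.33. Under glmTreat, a stricter edgeR test of whether the change exceeds a log2 fold change of 1, OTX2 was not called (adjusted p = 0.0536).

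SALL2 (ENSSSCG00000022705, plus strand of chromosome 7, 77638836 to 77653376) had 175 and 198 CPM in the overexpressing libraries against 297 and 281 CPM in the controls. The groups were separate, with a difference larger than the spread within either. Its log2 fold change, -0.63 (SE 0.136), had an adjusted p of 0.0116 in the same edgeR test, which is below 0.05, but its size was under the minimum. By adjusted p alone, 3 of the 8 factors passed in either direction (OTX2, SOX11 and SALL2), beside 29.4% of all genes tested without a fold minimum. SALL2 did not pass without overexpressing replicate 1 (adjusted p = 0.172) or 3 (0.0564), so 2 factors then passed. Which factors passed also differed when a control library was left out. Without control replicate 6 the log2 fold change was 0.48 for ZIC1 and 0.45 for SOX21. Without control replicate 8 it was -0.52 for ZIC2 and 0.64 for ZIC5. The share of all genes passing without a library or under other settings is not given, and 29.4% holds for the full comparison only. Whether the factors passed more often than other genes in those fits was not tested. The counts of OTX2 per count of SALL2, a ratio that does not depend on the scaling between libraries, were 0.103 and 0.198 in overexpressing cells and 0.323 and 0.364 in control cells.

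The ZIC factors were ordered by their pairs in the genome. ZIC2 (ENSSSCG00000009520, plus strand, 68840830 to 68846470) and ZIC5 (ENSSSCG00000009521, minus strand, 68819593 to 68830341) stand head to head on chromosome 11, 10.5 kb apart in the gene models of the count table. ZIC2, which acts in forebrain and neural plate development, had 76.6 and 98.2 CPM in the overexpressing libraries against 126 and 120 CPM in the controls. ZIC5, which acts in neural crest and neural tube development, had 37.6 and 40.2 CPM against 25.1 and 30.0 CPM. The overexpressing libraries were thus lower for ZIC2 and higher for ZIC5, without overlap, but neither was called. Their log2 fold changes were -0.50 (SE 0.162, adjusted p = 0.0547 in edgeR) and 0.50 (SE 0.170, adjusted p = 0.0642 in edgeR). There were 0.491 and 0.409 counts of ZIC5 per count of ZIC2 in overexpressing cells, and 0.199 and 0.250 in control cells. The difference between the 2 genes was not tested.

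ZIC1 (ENSSSCG00000011692, plus strand, 87745751 to 87752919) and ZIC4 (ENSSSCG00000011693, minus strand, 87722067 to 87738444) form the other pair, on chromosome 13. The gene models of the count table leave 7.31 kb between them. RefSeq, on the same assembly, ends ZIC4 at 87740724 and begins ZIC1 at 87740769, so the first exons it gives lie partly outside these models. Known for its part in cerebellar and dorsal neural tube development, ZIC1 had 64.9 and 68.5 CPM in the overexpressing libraries against 66.1 and 47.7 CPM in the controls. The groups overlapped, and the log2 fold change was 0.23 (SE 0.181, adjusted p = 0.381 in edgeR).

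ZIC4, a family member outside the 9 symbols, was counted with 224 and 160 reads in overexpressing and 20 and 6 reads in control libraries. Its mean level went from 0.812 ± 0.663 CPM in control cells to 8.35 ± 0.936 CPM (SD, n = 2 per group), with both overexpressing libraries above both controls. The fitted log2 change was 3.38 (SE 0.533, adjusted p = 0.00333 in edgeR). Leaving out control replicate 6 gave 4.58, and leaving out control replicate 8 gave 2.71, and the control libraries differed from each other by 3.73-fold.

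**Figure D2:**
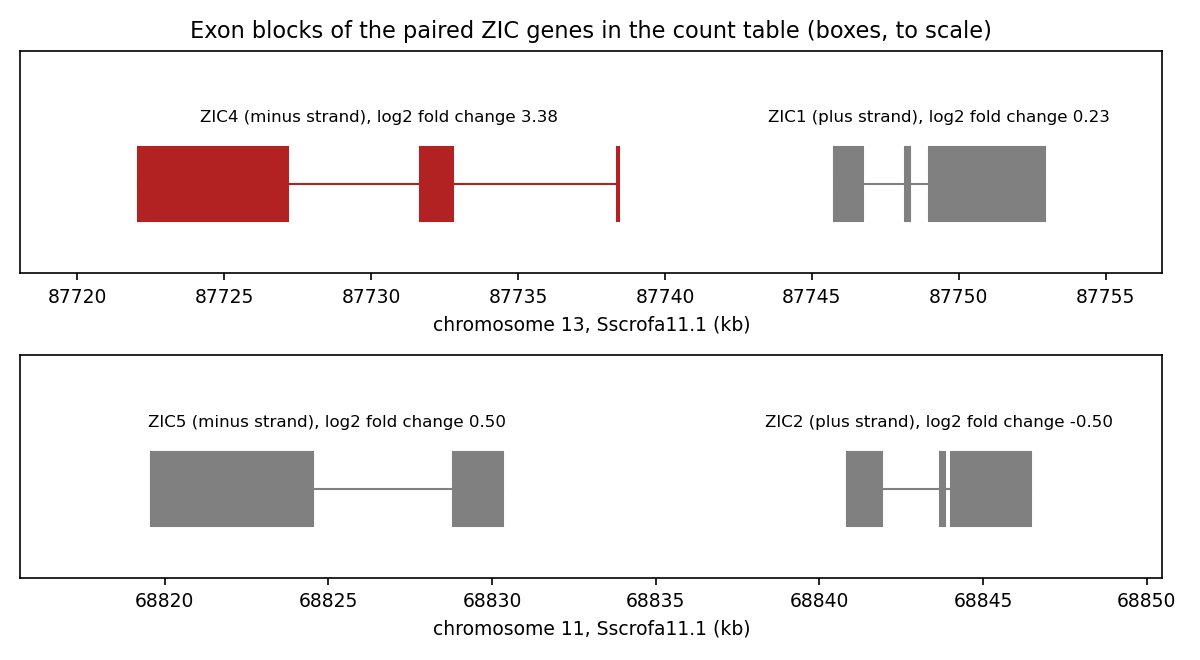
Exon blocks of the head-to-head ZIC pairs in the count table, drawn to scale in kb on Sscrofa11.1, with red for a gene called higher and grey for genes not called. ZIC4 had a log2 fold change of 3.38 beside 0.23 for ZIC1, and ZIC5 had 0.50 beside -0.50 for ZIC2.

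SOX3 (ENSSSCG00000022501, minus strand of chromosome X, 115019232 to 115020578), the SOXB1 factor, had 13.4 and 9.95 CPM in the overexpressing libraries against 18.5 and 18.3 CPM in the controls. SOX21 (ENSSSCG00000009494, minus strand of chromosome 11, 63825637 to 63826467), the SOXB2 factor, had 72.7 and 73.5 CPM against 57.7 and 53.5 CPM. SOX3 was thus lower and SOX21 higher in both overexpressing libraries, but neither was called. The log2 fold changes were -0.66 (SE 0.227, adjusted p = 0.0660 in edgeR) and 0.40 (SE 0.137, adjusted p = 0.0654 in edgeR). Per count of SOX3 there were 5.44 and 7.39 counts of SOX21 in overexpressing cells, and 3.12 and 2.92 in control cells.

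SOX11 (ENSSSCG00000008649, minus strand of chromosome 3, 129798854 to 129800197), a SOXC factor, was counted with 1283 and 844 reads in overexpressing and 73 and 46 reads in control libraries. This corresponds to 51.6 and 40.6 CPM against 4.67 and 2.63 CPM. Both overexpressing libraries were far above both controls, and all 4 were above the floor. The mean level was 46.1 ± 7.83 CPM in overexpressing cells against 3.65 ± 1.44 CPM in control cells (SD, n = 2 per group), a rise of 12.7-fold in the fit. The log2 fold change was 3.67 (SE 0.297, adjusted p = 0.000332 by the quasi-likelihood test of edgeR, Benjamini-Hochberg adjusted).

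For SOX4, the other SOXC factor, an unnamed row (ENSSSCG00000001081, plus strand of chromosome 7, 16891319 to 16892752) is the only row on the interval RefSeq gives the gene on the same assembly. It was chosen after its values had been seen and is not counted among the 8. It had 58.4 and 37.9 CPM in the overexpressing libraries against 35.6 and 28.5 CPM in the controls. The groups came close to each other without overlapping, and the row was not called (log2 fold change 0.59, SE 0.233, adjusted p = 0.0978 in edgeR).

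**Figure D3:**
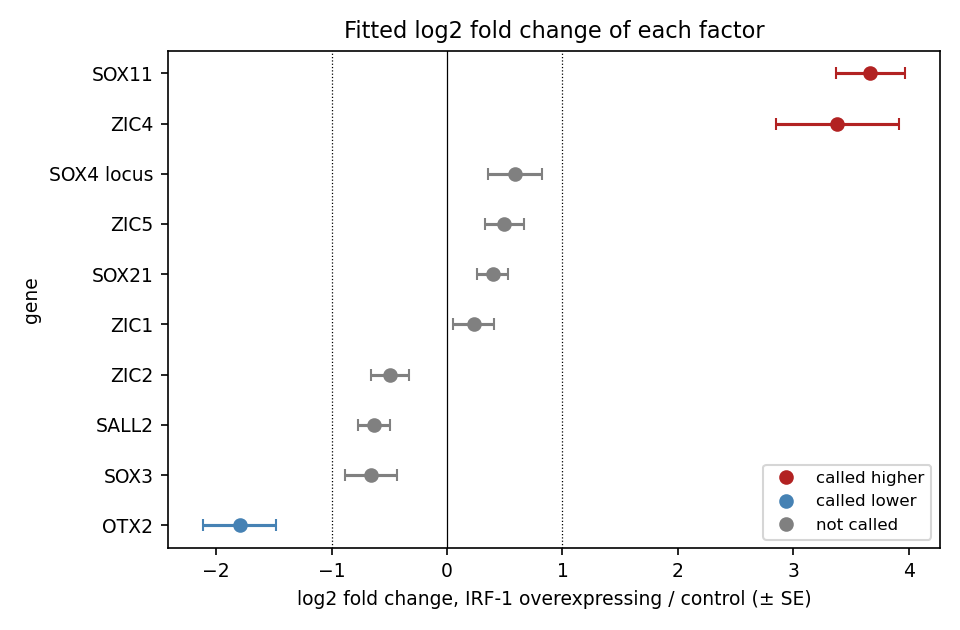
Fitted log2 fold change of each factor, IRF-1 overexpressing over control cells, with bars of 1 standard error and dotted lines at the minimum of 1 in either direction. SOX11 (3.67) and ZIC4 (3.38) lie above the upper line, OTX2 (-1.79) lies below the lower line, and the others lie between them.

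To compare levels between genes, CPM were divided by the exon length of each row in kb. The rows of SOX3, SOX11, SOX21 and the SOX4 locus are single blocks of 1347, 1344, 831 and 1434 bases, each a multiple of 3 and shorter than the RefSeq gene, so they hold coding length and reads on their UTRs were not counted. Their levels per kb are therefore less comparable with those of the other rows. In the control cells, the order of CPM per kb was SOX21 (66.9 ± 3.64), SALL2 (62.4 ± 2.47), ZIC2 (33.4 ± 1.22), OTX2 (21.4 ± 0.951), SOX3 (13.7 ± 0.106), ZIC1 (11.2 ± 2.56), ZIC5 (4.25 ± 0.538) and SOX11 (2.72 ± 1.07; SD, n = 2). In this order, SOX21 and SALL2, SOX3 and ZIC1, and ZIC5 and SOX11 did not differ by more than the sum of their SDs.

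In the IRF-1 overexpressing cells, the order of CPM per kb was SOX21 (88.0 ± 0.657), SALL2 (40.3 ± 3.41), SOX11 (34.3 ± 5.82), ZIC2 (23.7 ± 4.15), ZIC1 (13.2 ± 0.505), SOX3 (8.65 ± 1.79), OTX2 (6.17 ± 3.20) and ZIC5 (6.0 ± 0.283; SD, n = 2). SALL2 and SOX11 did not differ by more than the sum of their SDs, nor did SOX3 and OTX2, or OTX2 and ZIC5. SOX11 thus stood at rank 3 in these cells and at rank 8 in the controls, whereas OTX2 stood at rank 7 and at rank 4. SOX21 had the highest mean per kb in both groups, on a row of coding length. In CPM, SALL2 had the highest mean in both (186 in overexpressing and 289 in control cells).

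Among 11264 other tested genes with a symbol, the 5 whose pattern over the 4 libraries was nearest to that of OTX2 were HES3, ATP8B1, PDPN, ARSL and WFIKKN1. Their distances, Euclidean over centred log2(CPM + 1), lay between 0.185 and 0.234. HES3, a repressor of the HES family, had 7.91 ± 4.52 CPM in the overexpressing cells against 33.0 ± 2.62 CPM in the controls (SD, n = 2 per group). For SOX11, the nearest 5 were NMI, PSMB9, HCN4, BAZ1A and SYP, at distances between 0.208 and 0.375. NMI, an interferon-induced protein, had 63.6 and 54.3 CPM in the overexpressing libraries against 5.18 and 3.26 CPM in the controls. The immunoproteasome subunit PSMB9 had 43.9 and 35.7 CPM against 4.54 and 1.89 CPM. HCN4, BAZ1A and SYP were called higher as well, with log2 fold changes of 3.95, 3.16 and 3.73.

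No row shares exon bases with any of the 8 factors, ZIC4 or the row at the SOX4 locus. The nearest named gene of SOX11 is CMPK2, an interferon-induced nucleotide kinase 881 kb away, which had 16.1 and 14.4 CPM in the overexpressing libraries against 1.73 and 1.49 CPM in the controls (log2 fold change 3.25, SE 0.289, adjusted p = 0.000463 in edgeR). None of the nearest named genes of OTX2 (TMEM260, 141 kb), SALL2 (METTL3, 8.57 kb) and SOX21 (GPR180, 71.6 kb) was called, with log2 fold changes between -0.54 and 0.34.

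The list of the SOX family and the lists below were chosen with earlier results of these data known. Their shares therefore describe the lists and are no test of them. Of the 19 genes in the list of the SOX family, 12 have a named row and 7 were tested. Past the threshold, 3 were higher (42.9%) and 1 was lower (14.3%), beside 8.61% and 10.6% of all genes tested. The median log2 fold change was 0.41 beside 0.00 over all genes. The other genes called higher were SOX8, a SOXE factor (log2 fold change 2.51), and SOX6, a SOXD factor (1.25). SOX13, also a SOXD factor, fell (log2 fold change -1.23). Without overexpressing replicate 1, the log2 fold change was 0.89 for SOX6 and -0.92 for SOX13, and neither was called. SOX6 also lost its call without control replicate 8 (1.12), and SOX8 without overexpressing replicate 3 (2.02). Unnamed rows at the RefSeq loci of 6 SOX genes were looked up after the data had been seen. The row at the SOX1 locus, a SOXB1 factor of neural progenitors, was counted with 499 and 471 reads in overexpressing against 42 and 71 reads in control libraries (log2 fold change 2.65, SE 0.278, adjusted p = 0.000755 in edgeR). The row at the SOX2 locus had 217 and 226 CPM against 234 and 182 CPM and overlapped between the groups. Whether reads of the exogenous SOX2 were counted on it was not tested.

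All 11 genes in the list of ZIC, GLI and GLIS zinc fingers have a named row and 10 were tested. ZIC4 and GLIS3 (log2 fold change 1.47) were higher, and GLI1, an effector and target of hedgehog signalling, was lower (-2.11), with a median of 0.30. The call of GLIS3 was lost without overexpressing replicate 1 (0.97) or control replicate 6 (1.15), and that of GLI1 without overexpressing replicate 1 (-1.46) or control replicate 8 (-1.79). Of 7 OTX and SALL genes, 5 were tested. SALL3 rose from 10.7 ± 0.688 to 56.0 ± 5.81 CPM (log2 fold change 2.39), and OTX2 and SALL1 (-1.07) fell, with a median of -0.63. SALL1 was at -0.90 without control replicate 6.

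The list of formative and primed epiblast genes holds 6 of the named factors and 30 genes in all, of which 26 have a named row and 20 were tested. In this list 4 were higher (20.0%) and 6 lower (30.0%), beside 8.61% and 10.6% of all genes tested. The median log2 fold change was -0.56 beside 0.00 over all genes tested. POU3F1, a POU factor of the formative epiblast and of neural cells, was counted with 245 and 262 reads in overexpressing and 2 and 1 reads in control libraries. SOX11 and SFRP2, a secreted WNT modulator (log2 fold change 2.03), followed. The lowest were FOXI3 (-2.91), OTX2 and the RNA-binding protein LIN28A (-1.34). Genes of this list thus stood on both sides.

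Of 34 genes of neural plate and forebrain patterning, 27 were tested. Of these, 6 were higher (22.2%) and 7 lower (25.9%), OTX2 among the 7, beside 8.61% and 10.6% of all genes tested. The median log2 fold change was 0.25 beside 0.00 over all genes tested. FEZF1, a forebrain zinc finger factor, was counted with 7325 and 2425 reads in overexpressing against 14 and 11 reads in control libraries (log2 fold change 8.08). Its log2 fold change lay between 7.27 and 8.6 with each library left out. The dorsal neural factor PAX7 had 120 and 185 counts against 0 and 2, and FEZF2 had 74 and 28 against 0 and 3. FEZF2 lost its call without overexpressing replicate 1 (log2 fold change 3.82). With each library left out, the log2 fold change of MSX1 lay between -4.06 and -2.76. Among called genes that averaged 1 CPM or more, MSX1 (-3.29), DACH1 (-2.08) and the intermediate filament gene NES (-2.06) were the lowest. HES5, under that level and named after its values were seen, was also called lower, with 1 and 0 counts against 11 and 14, but was not called without overexpressing replicate 3 and not tested without control replicate 8. DACH1 lost its call without overexpressing replicate 3 (-1.90).

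Of 31 genes of neuronal differentiation, 23 were tested. Of these, 15 were higher (65.2%) and 1 lower (4.35%), beside 8.61% and 10.6% of all genes tested. SOX11 is among the 15, and the list was chosen with earlier results of these data known. The median log2 fold change was 2.02 beside 0.00 over all genes tested. The proneural factor NEUROG2 had 85 and 49 counts against 0 in both controls and was at least 15.9-fold higher, measured against the floor of each control library, and the median of the list was the same with NEUROG2 at this bound. NEUROG1 had 117 and 127 counts against 1 and 1. The neuronal tubulin gene TUBB3 rose from 97 and 185 counts to 8726 and 2443. TEAD2, a partner of YAP, fell (-1.07) and was at -0.94 without overexpressing replicate 1 and -0.93 without control replicate 6. The levels of SOX11 and TUBB3 were both higher in overexpressing replicate 1 than in replicate 3. This does not hold for each gene of the list called higher: NEUROG1, MYT1L and POU4F1 were lower in replicate 1 than in replicate 3.

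Markers of cell types were read in the same libraries, where 8.61% of all genes tested were called higher and 10.6% lower. All 8 neuron markers are also in the list of neuronal differentiation. The tested neural progenitor markers, except PROM1, are also in the neural plate or the epiblast list. These markers are thus largely the same genes read again, not separate support. Of 8 neuron markers, 4 rose (STMN2, TUBB3, INA and ELAVL3) and none was called lower, and the summed level of the 8 was 797 and 392 CPM in overexpressing replicates 1 and 3 against 195 and 229 CPM in control replicates 6 and 8. The most abundant of them was TUBB3 in replicate 1, STMN2 in replicate 3 and MAP2 in both controls. Of 7 tested neural progenitor markers, 5 fell (3 without overexpressing replicate 1) and 1 (PROM1) rose, with sums of 431 and 527 CPM against 1081 and 1010 CPM, and CDH2 was the most abundant. The sum of the neuron markers was thus highest in overexpressing replicate 1, where OTX2 was lowest and SOX11 highest. This does not hold for each marker: MAP2, named with NEFL after the values were seen, was lowest in that library (55.7 CPM against 78.1 CPM in replicate 3, and 96.1 and 115 CPM in the controls), and NEFL was lower there than in replicates 3 and 8. The part of these markers in the differences of OTX2 and SOX11 was not tested.

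Of 12 pluripotency markers, 5 have a named row and 4 were tested. Of these 4, 3 fell (ESRRB, CDH1 and LIN28A). The sums over the named rows were 199 and 272 CPM against 786 and 645 CPM, and LIN28A was the most abundant. NANOG had between 5 and 11 counts in each library and was not tested. The unnamed row on the POU5F1 interval of RefSeq had 0, 0, 0 and 1 counts. That on the ZFP42 interval had 0 in all 4 libraries. These defining markers of the labelled cell type were thus nearly without reads in the table. Other listed markers matched by position did hold reads. The row at PODXL had 535 and 1027 CPM in overexpressing against 3944 and 3173 CPM in control libraries. It was called lower (log2 fold change -2.19). The rows at UTF1 (-0.35) and TDGF1 (0.79) were not called, and the row at SOX2 is given above. The near absence of reads at POU5F1 and ZFP42 does not show that they were not expressed. Whether mapping or gene models account for it was not tested. For DOX-hLIF-2i piPSCs, the study itself reported a low level of endogenous OCT4 (POU5F1) and an inactive NANOG. By RT-PCR it reported higher endogenous OCT4 in the IRF-1 overexpressing cells.

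Of 5 tested trophoblast markers, 3 fell (KRT8, KRT18 and TFAP2C) and TFAP2A rose, with sums of 308 and 1156 CPM against 15600 and 9552 CPM, and KRT8 was the most abundant. CDX2 and HAND1 had 0 counts in all 4 libraries. Of 6 tested fibroblast markers, 3 fell (PDGFRB, COL1A1 and DCN) and COL1A2 rose, with sums of 1360 and 1092 CPM against 1596 and 1542 CPM, and VIM was the most abundant. COL1A2 lost its call without overexpressing replicate 1 (0.65) or control replicate 8 (0.78). Of 3 tested endoderm markers, APOA1 fell, with sums between 41.0 and 78.5 CPM led by GATA6, and FOXA2 and AFP had 0 counts in all libraries. PDGFRA, named after its values were seen, was not called (log2 fold change -1.60, adjusted p = 0.0507 in edgeR), but was called lower without control replicate 8 (-1.93), which makes 2. Neither of 2 tested mesoderm markers was called, with sums between 6.64 and 11.7 CPM led by TBX6. The part of these markers in the differences of OTX2 and SOX11 was not tested.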

How the data were processed

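The 4 RNA-seq libraries, 2 of IRF-1 overexpressing and 2 of control cells, were used, and the ChIP-Seq samples were not analysed here. The study's methods name trim_galore for filtering, HISAT2 for mapping to Sscrofa11.1 and featureCounts 1.6.4 for counting (htseq-count is named too). The authors deposited whole-number counts per Ensembl gene, without normalization or pooling, beside an exon length. Strandedness, annotation release and how multi-mapped reads were handled are not given in the sources used here, so counts of near-identical genes are uncertain.

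Counts were compared with edgeR 4.0.16 in R 4.3.3 (TMM, filterByExpr by group, quasi-likelihood test, Benjamini-Hochberg adjustment over 13250 genes). The standard error is the size of the log2 fold change divided by the square root of F. With 2 libraries against 2, no exact two-sided permutation test can go below p = 0.333, so p-values rest on the spread edgeR shares across genes. Replicates of a group were not duplicates: their counts gave a chi-square of 17.9 (overexpressing) and 31.3 (control) per degree of freedom. Floors cover counting error only. The test was checked on simulated counts.

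The members and lists were chosen with earlier results of these data known. Named by rule were IRF1, the members, ZIC4, up to 3 highest and 3 lowest called genes of each list that averaged 1 CPM or more, the 5 genes nearest in pattern to OTX2 and SOX11, and the nearest annotated genes. Some results planned by this rule are not reported here. Other genes named were chosen after their values were seen. Alternatives were other scalings and filters, DESeq2 1.42.0, limma-voom (limma 3.58.1), glmTreat, no fold minimum, each library left out, and no mitochondrial or top 10 genes. Rows matched by position were added after seeing the data. Protein and promoter sequences were not analysed here. Python 3.11.15 was used for tables (pandas 2.3.3), sums (numpy 2.4.6) and plots (matplotlib 3.10.9).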

Additional observations from a re-analysis of the deposited data

How the results depend on the processing

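SOX11 was called higher under all 14 alternatives, and with a log2 fold change between 3.31 and 4.13 when each library was left out. OTX2 was called lower under 13, between -2.44 and -1.33 without each library. With glmTreat 0 of the 8 factors were lower (OTX2 had an unadjusted p of 0.00509 and an adjusted p of 0.0536, and 1 factor was lower at an unadjusted p under 0.05), whereas DESeq2 and limma-voom each called it. Without a fold minimum 2 were lower, SALL2 being added by construction. Against 3 by adjusted p alone, 6 of 8 passed with no filter and 4 with DESeq2 or limma-voom. The share of all genes in these fits is not given, so these counts are not a result about the factors in particular.

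Over all genes, 1842 were higher and 2054 lower without a fold minimum, and glmTreat called 611 higher and 603 lower. Leaving out a library gave between 756 and 1156 higher and between 874 and 1548 lower, the fewest without overexpressing replicate 1. Such a fit assumes that the lone library varies like the other group.

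Under glmTreat, lower genes numbered 0 in the SOX, 0 in the ZIC, GLI and GLIS, 0 in the OTX and SALL, 1 in the epiblast, 3 in the neural plate and 0 in the neuronal list, and 1 zinc finger gene was higher, as with limma-voom. Without a fold minimum 2 neuronal genes were lower. With each library left out, lower genes ranged from 0 to 1 in the SOX, zinc finger and neuronal lists and from 1 to 2 among OTX and SALL genes, and higher genes from 1 to 2 among zinc fingers and among OTX and SALL genes. With rows matched by position, chosen after seeing the data, 2 SOX genes were lower, SOX7 being added.

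Among marker lists, lower neural progenitor markers numbered 2 under glmTreat and 3 without overexpressing replicate 1, and higher ones 2 with rows matched by position. Lower endoderm markers numbered 2 with upper quartile scaling, library totals, no filter, the 1 CPM filter and without control replicate 8, PDGFRA being added. Higher neuron markers numbered 2 under glmTreat, 1 was lower without a fold minimum, and 1 mesoderm marker was lower with the 1 CPM filter. Higher fibroblast markers numbered 0 under glmTreat and without overexpressing replicate 1 or control replicate 8.

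Of 802 values of single named genes, which leave out glmTreat and the fit without a fold minimum, 773 kept direction and side of the threshold, 18 lost the call, 6 gained it in the same direction (PDGFRA 5 times, DUSP6 once) and 5 changed sign, 1 of them with a call (DUSP6, higher). The sign changes were in the row at the SOX12 locus (-0.03 without overexpressing replicate 3, and between -0.18 and 0.41 over the libraries left out), the row at the SOX2 locus (between -0.07 and 0.28) and DUSP6 (0.22 with limma-voom, and between -1.88 without control replicate 8 and 2.49 without control replicate 6), none called in the full comparison. With 1 or the other control left out, DUSP6 passed the threshold, in opposite directions. The cause was not tested. Of 53 single genes called in the full comparison, glmTreat called 38, with 23 of 27 higher and 15 of 26 lower. No paired analysis was possible because the groups share no replicate numbers.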

Other observations

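DUSP6, a phosphatase induced by ERK signalling and a gene of the epiblast list, was chosen after its values had been seen. It had 68 and 133 counts in IRF-1 overexpressing replicates 1 and 3, and 262 and 14 counts in control replicates 6 and 8. The control libraries thus lay on either side of both overexpressing ones, and the gene was not called (log2 fold change -0.94, SE 1.02, adjusted p = 0.528 by the quasi-likelihood test of edgeR). It was called higher without control replicate 6 (log2 fold change 2.49, adjusted p = 0.0169) and lower without control replicate 8 (-1.88, adjusted p = 0.0068), so its direction depended on which control was left out.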
